A study of Mus musculus with 12 samples.

Results

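The intervals described here were those at which the cortex (CTX) alone had a deposited H3K4me3 peak among 4 regions of the embryonic mouse forebrain. The peaks of the 4 lists, for the medial, lateral and caudal ganglionic eminences (MGE, LGE and CGE) and the CTX, were merged wherever they overlapped or touched. The merged set held 29785 union intervals, and 3571 of them held a CTX peak and no peak of the other 3 lists. These were 12.0% of all union intervals and 16.7% of the 21442 CTX peaks, and each of them was 1 peak of the CTX list. All tissue came from wild-type C57BL/6J embryos, pooled and microdissected as MGE, LGE, CGE or somatosensory cortex, and the mark was profiled by CUT&Tag, in which an antibody brings a transposase to marked chromatin. The age is E12.5 in the study's text, while the labels' protocol names both E12.5 and E14.5. Each region had 2 replicates, which the authors merged before they called peaks, so that 1 list stands for each region and no value below has a replicate error or a test between regions. Wilson 95% intervals of shares cover counting error only. The intervals were chosen by the presence and absence of peaks in these lists, so their counts, widths, fold enrichments and −log10 q values (q being the caller's adjusted p of a peak) are given as a description.

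H3K4me3 is deposited around the start sites of transcribed genes, most strongly at CpG islands, and at a lower level at many active enhancers. In the developing forebrain the cortex is built by dorsal progenitors that express Emx1, Emx2, Pax6 and the Dmrt factors and give rise to glutamatergic projection neurons. The ganglionic eminences lie ventrally and give rise to GABAergic neurons. The cortical hem, at the medial edge of the cortex, secretes Wnt and Bmp ligands.

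The tissue labels were compared with marker promoters, taken as 2 kb around any annotated transcription start site (TSS). The CTX list had a peak at 5 of 6 cortex markers (Emx1, Neurog2, Tbr1, Eomes and Neurod2), while Neurod6 had none in any list. It had a peak at 6 of 8 markers of the eminences and none at Nkx2-1 or Lhx6, the MGE determinants. At Gad1, a GABA-synthesising enzyme, CTX peaks covered 129 bp, against 1663, 2883 and 4418 bp in MGE, LGE and CGE. Gad1 was the extreme case. CTX peaks covered 356 bp at Gsx2, 710 bp at Gad2, 857 bp at Dlx5, 1128 bp at Dlx2 and 1307 bp at Dlx1, each less than in any other list. The promoters of the same 5 cortex markers also carried LGE and CGE peaks. These covered more than those of CTX at Emx1, Tbr1, Eomes and Neurod2, but not at Neurog2. MGE had peaks at all of them but Neurod2. The presence of a peak at cortex markers thus did not set the CTX list apart from the LGE and CGE lists. A smaller share of marked nuclei and a weaker mark per nucleus cannot be told apart in such bulk tissue, and a place without a listed peak is not shown to lack the mark.

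Sequences of 7 of the 3571 intervals are printed here: the 5 with the highest −log10 q, and 2 at Dmrta1, a locus described below. They are read on the + strand of GRCm38, up to 300 bases around the interval's midpoint, and the letters come from the RefSeq assembly. Capitals mark TAATTA, the core bound by many homeodomain proteins, and the E-box letters CAGATG (or CATCTG on the other strand), CAGCTG and CATATG, to which basic helix-loop-helix factors bind. A match is a description of the letters and not a bound site.
Emx1 locus, 21261 bp upstream of Emx1, intergenic, chr6:85165627-85165926: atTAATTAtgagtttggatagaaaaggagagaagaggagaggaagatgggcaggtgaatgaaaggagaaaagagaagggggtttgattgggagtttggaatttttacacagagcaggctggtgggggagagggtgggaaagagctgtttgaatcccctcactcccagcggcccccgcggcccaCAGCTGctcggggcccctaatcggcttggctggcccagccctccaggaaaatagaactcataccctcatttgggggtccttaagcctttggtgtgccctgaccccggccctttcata
5358 bp upstream of Tnrc18, intergenic, chr5:142823235-142823534: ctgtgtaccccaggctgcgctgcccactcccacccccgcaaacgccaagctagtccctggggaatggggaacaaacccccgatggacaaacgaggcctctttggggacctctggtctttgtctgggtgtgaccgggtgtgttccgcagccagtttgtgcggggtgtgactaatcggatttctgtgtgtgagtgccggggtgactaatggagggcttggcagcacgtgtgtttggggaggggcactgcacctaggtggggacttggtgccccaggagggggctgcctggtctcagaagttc
Rab11fip2 intron, chr19:59911628-59911927: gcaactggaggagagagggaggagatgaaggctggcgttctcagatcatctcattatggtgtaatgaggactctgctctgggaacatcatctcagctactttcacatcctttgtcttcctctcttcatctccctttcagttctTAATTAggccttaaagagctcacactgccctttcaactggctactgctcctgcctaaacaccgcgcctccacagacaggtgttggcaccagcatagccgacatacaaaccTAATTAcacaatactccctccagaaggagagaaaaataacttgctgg
Dmrt1 intron, 11313 bp upstream of Dmrt3, chr19:25598746-25598988: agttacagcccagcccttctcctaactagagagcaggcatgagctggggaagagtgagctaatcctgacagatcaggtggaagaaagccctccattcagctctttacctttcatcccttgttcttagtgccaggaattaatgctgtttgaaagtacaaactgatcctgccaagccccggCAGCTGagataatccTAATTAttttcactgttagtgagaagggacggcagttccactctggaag
Eif4a3 intron, 214 bp downstream of a TSS, chr11:119299462-119299761: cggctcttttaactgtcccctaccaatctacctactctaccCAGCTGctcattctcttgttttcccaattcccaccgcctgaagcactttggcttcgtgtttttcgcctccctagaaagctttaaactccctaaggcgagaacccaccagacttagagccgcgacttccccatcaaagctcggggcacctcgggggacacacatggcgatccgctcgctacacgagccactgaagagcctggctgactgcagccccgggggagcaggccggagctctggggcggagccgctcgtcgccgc
339 bp upstream of Dmrta1, intergenic, chr4:89678804-89679097: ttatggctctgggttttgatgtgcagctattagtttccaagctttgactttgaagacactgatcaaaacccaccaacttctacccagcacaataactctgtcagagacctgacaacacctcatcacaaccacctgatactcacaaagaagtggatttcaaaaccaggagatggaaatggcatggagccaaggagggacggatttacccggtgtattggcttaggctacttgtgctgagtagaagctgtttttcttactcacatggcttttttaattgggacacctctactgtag
28096 bp upstream of Dmrta1, intergenic, chr4:89650892-89651191: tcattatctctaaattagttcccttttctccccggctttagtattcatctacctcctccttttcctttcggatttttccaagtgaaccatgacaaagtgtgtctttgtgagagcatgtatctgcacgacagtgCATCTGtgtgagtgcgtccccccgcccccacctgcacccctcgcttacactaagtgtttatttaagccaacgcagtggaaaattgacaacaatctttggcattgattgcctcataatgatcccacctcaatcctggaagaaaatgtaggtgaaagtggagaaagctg
The Emx1 interval held 1 TAATTA and 1 CAGCTG in its window, the Rab11fip2 interval 2 TAATTA, the Dmrt3 interval 1 TAATTA and 1 CAGCTG, the Eif4a3 interval 1 CAGCTG, and the farther Dmrta1 interval 1 CAGATG on the other strand. The windows upstream of Tnrc18 and 339 bp upstream of Dmrta1 held none of these letters.

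The CTX list was second only to the MGE list in intervals of its own. A peak was listed in MGE alone at 6562 union intervals (22.0%), in CGE alone at 547 (1.84%) and in LGE alone at 326 (1.09%), while 14826 (49.8%) were shared by all 4 lists. Among the 17825 union intervals of 500 bp or more, CTX alone held 319 (1.79%), MGE alone 322 (1.81%), CGE alone 153 (0.858%) and LGE alone 89 (0.499%). CTX and MGE thus had nearly equal numbers of wide intervals of their own. The lists differ in what they contain at the narrow end: the narrowest CTX peak was 122 bp and the narrowest MGE peak 114 bp, but the LGE and CGE lists began at 243 and 242 bp. Under 243 bp, CTX had 4167 peaks, MGE 7006, CGE 3 and LGE 0. Of the intervals marked in CTX alone, 65.1% (95% interval 63.5 to 66.6) were narrower than 243 bp, and with that width as the minimum in every list the count was 1489. That count includes intervals that other lists shared only through narrower peaks. The median −log10 q of all peaks was 8.57 in CTX, 5.19 in MGE, 40.0 in LGE and 79.3 in CGE. How many reads lie behind a peak is not known from the lists. The study's text gives read depths per library, which differ between regions, with the CGE libraries deeper than those of LGE and MGE. For CTX it prints a clear depth for a single replicate only, and that depth was above those of LGE and MGE.

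**Figure D1:**
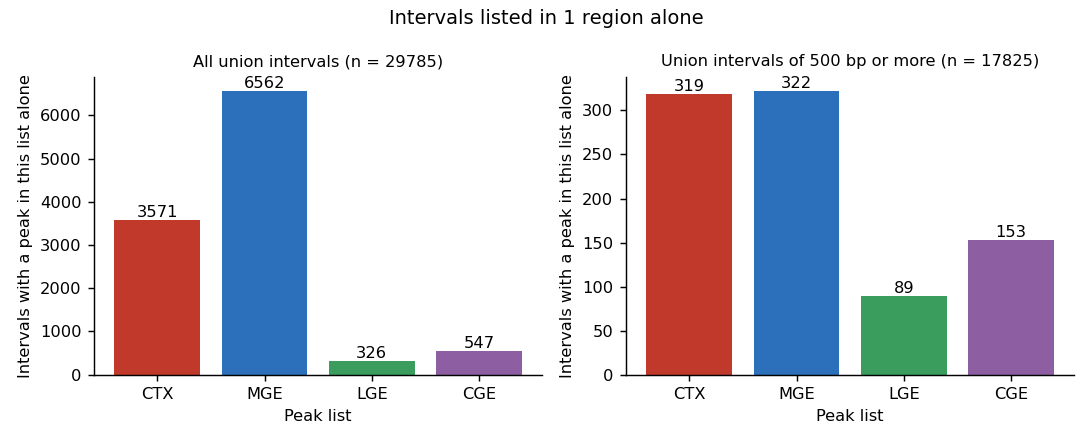
Number of union intervals with a peak in 1 list alone (bars, by peak list), over all union intervals on the left and over those of 500 bp or more on the right. CTX alone holds 3571 of all intervals and 319 of the wide ones, next to 6562 and 322 for MGE alone.

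The intervals marked in CTX alone were narrow and weak beside the CTX peaks that other lists shared. Their width ran from 122 to 1321 bp with a median of 193 bp and quartiles of 147 and 299.5 bp. The 17871 shared CTX peaks had a median width of 821 bp, and the intervals in MGE alone 167 bp. The authors' fold enrichment over background had a median of 3.66 in CTX alone and 5.59 in the shared CTX peaks. With depths differing between regions, the listed median −log10 q was 2.14 in CTX alone, 12.8 in shared CTX peaks and 1.42 in MGE alone. The −log10 q was under 2 for 42.3% of the CTX-alone intervals, for 5.65% of the shared CTX peaks and for 75.0% of the intervals in MGE alone. The strongest CTX-alone interval reached 20.0.

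**Figure D2:**
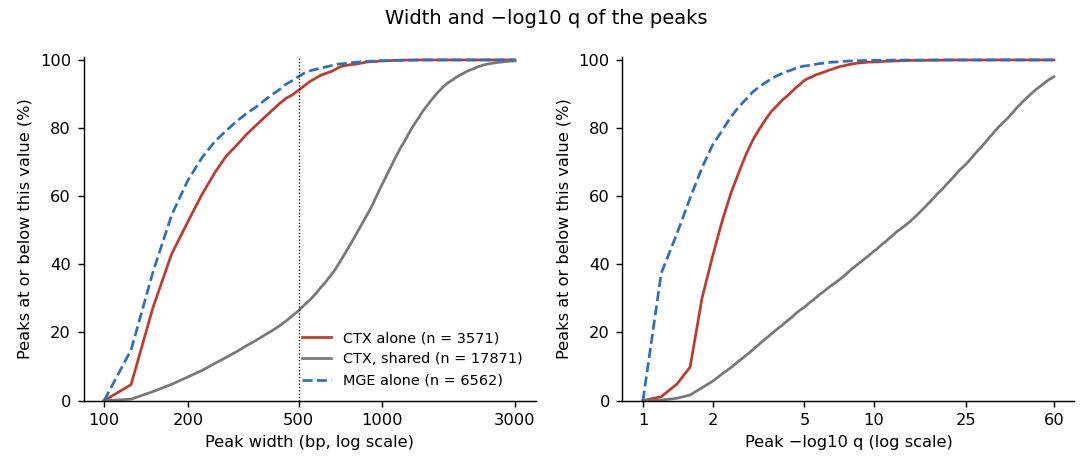
Cumulative share of peaks (y axis, %) by width in bp (left, log scale, dotted line at 500 bp) and by −log10 q (right, log scale), for peaks in CTX alone, CTX peaks shared with another list, and peaks in MGE alone. By width the CTX-alone curve lies close to that of MGE alone, with medians of 193 and 167 bp, and far left of the shared CTX peaks with 821 bp. By −log10 q these 2 curves lie apart, with 42.3% of CTX alone and 75.0% of MGE alone under 2.

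Most CTX-alone intervals lay well away from other marked places. The gap to the nearest peak of another list had a median of 16711 bp, 6.89% were within 1 kb of such a peak and 31 intervals were within 100 bp. Just outside the rule, 36 shared CTX peaks were covered for less than 10% of their length by other lists, with a median width of 245 bp and a median −log10 q of 2.40. A further 369 were covered for 10 to 50%, with medians of 390 bp and 2.59.

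These intervals were mainly intronic or intergenic. By their midpoint, 51.8% (50.1 to 53.4) lay in an intron, 38.2% (36.6 to 39.8) between genes and 10.1% (9.11 to 11.1) in an exon. They covered a TSS in 4.09% and were within 2 kb of a TSS in 20.0% (18.7 to 21.3). A further 31.5% were over 2 to 10 kb from the nearest TSS, 37.2% over 10 to 50 kb and 11.3% over 50 kb. The shared CTX peaks covered a TSS in 70.2% and were within 2 kb of a TSS in 81.1%, whereas 16.2% (15.3 to 17.1) of the intervals in MGE alone were. Read from the other side, CTX alone held 4.23% of the union intervals within 2 kb of a TSS and 22.1% of those farther away. Of the 319 intervals of 500 bp or more, 167 were intronic, 121 intergenic and 31 exonic, and 69 were within 2 kb of a TSS (21.6%, 17.5 to 26.5). The wide intervals covered a TSS more often, in 10.3% (7.46 to 14.2) against 3.47% (2.90 to 4.16) of those under 500 bp. In shared CTX peaks the share within 2 kb of a TSS was 52.3% under 500 bp and 91.4% at 500 bp or more. The nearest gene was protein-coding for 55.3%, a lincRNA for 14.1% and a processed pseudogene for 9.91%, and 1930 intervals lay inside the body of a protein-coding gene.

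The sequence under these intervals was poor in CpG. In the 300 bases around the midpoint the median GC content was 51.7%, and the ratio of observed to expected CpG was 0.244, against 63.7% and 0.731 in the shared CTX peaks. Windows with a GC content of at least 50% and a ratio of at least 0.6 made up 3.67% of the CTX-alone intervals, 64.6% of the shared CTX peaks and 3.44% of the intervals in MGE alone. Within 2 kb of a TSS the share in CTX alone was 9.68% (7.72 to 12.1), against 74.5% of the shared CTX peaks. Windows with 50% or more repeat-masked bases made up 8.91% (8.01 to 9.88) of CTX alone and 19.6% (18.6 to 20.5) of MGE alone.

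Of the 10 intervals with the highest −log10 q, 8 were intronic and 2 intergenic by their midpoint. The highest −log10 q, 20.0 with a fold of 9.66, belonged to the 379 bp interval in an intron of Eif4a3, an RNA helicase of the exon junction complex, at chr11:119299422-119299800, and it was the only peak of any list within 2 kb of an Eif4a3 TSS. The nearest peak of another list lay 30524 bp away, although the gene is broadly expressed, and the cause of that gap was not tested. The next, also 20.0 with a fold of 6.77, was the 802 bp intergenic interval at chr6:85165376-85166177 in front of Emx1, a homeobox factor of dorsal progenitors. The 339 bp interval at chr19:59911608-59911946, in an intron of Rab11fip2, a recycling endosome protein, had the highest fold, 10.5, and a −log10 q of 19.6. An interval of 729 bp lay 5358 bp upstream of Tnrc18 with a fold of 3.18 and a −log10 q of 16.6, and 829 bp from the nearest peak of another list. The 243 bp interval at chr19:25598746-25598988, in an intron of Dmrt1 and 11313 bp upstream of Dmrt3, a doublesex-related factor of medial cortical progenitors, had a fold of 6.97 and reached 14.2 in −log10 q. At Lhx2, a LIM homeobox selector gene of the cortex, an interval of 546 bp covered the TSS of the antisense transcript Gm27197 within the Lhx2 gene at a fold of 2.97 and a −log10 q of 13.0.

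The remaining intervals with the highest −log10 q were nearest to the lincRNA E330013P04Rik (14.0), the pseudogene Gm12808 within Faf1 (13.4), Gm13277 (13.3) and Mtss1 (12.4), an actin-binding protein. The remaining folds among the 10 highest were 8.52 at Gm13277, 7.99 at Dnajc1, 7.98 at C330021F23Rik, 7.95 at Gm48172, 7.90 at Dennd1a, 7.81 at Nf2, which encodes the tumour suppressor merlin, 7.62 at Gm12808 and 7.13 at Dmrta1. The Dmrta1 interval, 294 bp at chr4:89678804-89679097, lay 339 bp upstream of the TSS of that doublesex-related factor of dorsal progenitors. Of these intervals, those at Gm13277 and Dmrta1 were within 2 kb of a protein-coding TSS, like that at Eif4a3.

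The widest intervals were mostly weak. That at Cldn9, a claudin of tight junctions, was 1321 bp with a −log10 q of 3.59 and covered the TSS and an exon at chr17:23683075-23684395. Those near the lincRNA Platr19 and the antisense transcript 4930563H07Rik were 1320 and 1195 bp with a −log10 q of 1.41 and 2.99. Intervals of 1123 bp over the start of the lincRNA D230030E09Rik, 1118 bp in Zfp423, a zinc-finger factor, 1076 bp in Stk39, a kinase, 1073 bp in Edar, a receptor, and 1069 bp in Kif5c, a kinesin motor, had a −log10 q of 5.05, 5.96, 2.99, 1.89 and 4.84. The list closed with 1055 bp near the snoRNA gene Gm24298 and 1035 bp over a start of Sbno2, at 2.62 and 2.24.

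At the Emx1 locus the CTX-alone intervals stood in the longest run of all. A run was counted where at least 3 such intervals followed each other at gaps of at most 50 kb, measured along the chromosome whatever lay between them. This one held 17 intervals over 155 kb at chr6:85159209-85314368, from upstream of Emx1 into the neighbouring gene Sfxn5, which encodes a mitochondrial carrier protein. Only 2 other union intervals lay in the same stretch, the Emx1 promoter, marked in all 4 lists, and an interval in MGE alone. The 17 intervals were 131 to 802 bp wide and covered 5458 bp. At the Emx1 promoter the CTX peaks within 2 kb of a TSS covered 2537 bp, against 495, 3337 and 3453 bp in MGE, LGE and CGE. This CTX sum includes CTX-alone intervals of 213, 211 and 406 bp, while the shared CTX peak there was 1707 bp. The promoter was thus marked most widely in LGE and CGE, whose peaks were wider in general. The median width of all listed peaks was 1168 bp in LGE, 1240 bp in CGE, 701 bp in CTX and 563 bp in MGE. After the 802 bp interval, the highest −log10 q of the run were 9.37 for 482 bp with a fold of 6.43 and 7.77 for 306 bp with a fold of 6.29, both within Sfxn5. An interval of 406 bp lay 267 bp downstream of an Emx1 TSS, over an exon, with a −log10 q of 6.15. An interval of 608 bp lay 59 bp upstream of an internal Sfxn5 TSS with 3.90.

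**Figure D3:**
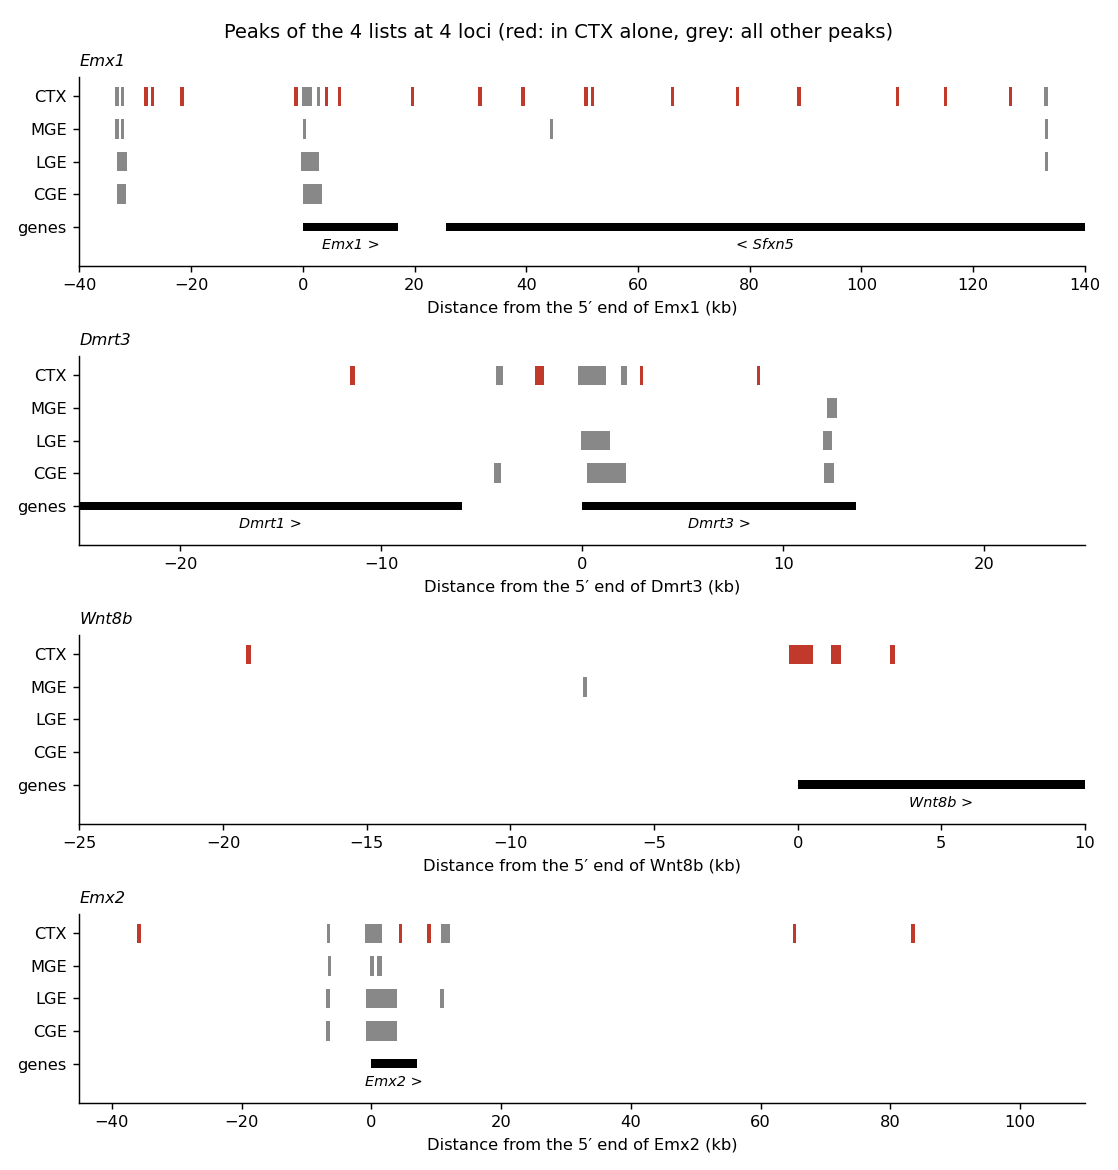
Peaks of the 4 lists at Emx1, Dmrt3, Wnt8b and Emx2 by distance from the 5′ end of each gene (x axis, kb, to the right in the direction of transcription). Red bars are CTX peaks with no peak of another list, grey bars all other peaks, black bars protein-coding genes, and very narrow peaks are drawn at a minimum width. Of the 22 CTX peaks shown at Emx1, 17 are red.

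At Wnt8b, a Wnt ligand of the medial cortex and hem, CTX alone marked the gene's 5′ end. An interval of 840 bp covered the TSS at chr19:44493165-44494004 with a fold of 4.38 and a −log10 q of 7.99. Intervals of 356 and 183 bp followed in the intron, 1146 and 3209 bp downstream of a TSS, and 1 of 157 bp lay 19043 bp upstream. From 25 kb upstream to 10 kb downstream of the 5′ end, MGE had 1 peak of 127 bp and LGE and CGE had none. LGE and CGE peaks of 355 and 1417 bp lay within 2 kb of other annotated Wnt8b start sites farther downstream.

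At Dmrt3, 4 CTX-alone intervals of 162 to 411 bp surrounded a promoter that was shared with LGE and CGE. CTX peaks covered 2116 bp within 2 kb of a Dmrt3 TSS, LGE peaks 1460 bp, CGE peaks 1914 bp and MGE had none. The CTX sum includes the CTX-alone interval of 411 bp, beside shared CTX peaks of 1416 and 289 bp. At Dmrta1 3 of the 4 CTX peaks from 55 kb upstream to 25 kb downstream were in CTX alone, and the remaining peak, of 2061 bp, was shared by all lists.

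Emx2, a homeobox factor related to Emx1, had 6 CTX-alone intervals among the 9 union intervals for which it was the nearest protein-coding gene. The largest −log10 q among them was 8.49, for 475 bp over an exon of the gene at chr19:59462598-59463072. Of the others, an interval of 698 bp lay 35457 bp upstream with 6.37, and an interval of 357 bp lay 78912 bp downstream with 6.96. Emx2's promoter peaks covered 3167 bp in CTX, 1359 bp in MGE, 4839 bp in LGE and 4893 bp in CGE.

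Runs were otherwise short. In all, 380 CTX-alone intervals (10.6%) stood in 106 runs, while the intervals in MGE alone, which are more numerous, formed 334 runs with 1196 intervals (18.2%) and a longest run of 14. After the Emx1 run came 7 intervals over 97.9 kb near Cdon, a Hedgehog co-receptor, 6 over 145 kb near Cdh4, which encodes R-cadherin, and 6 over 90.5 kb around Rhbg, an ammonium transporter. Runs of 5 lay within 88.9 kb at Kcnn3, a calcium-activated potassium channel, within 74.0 kb at Cntfr, the receptor of ciliary neurotrophic factor, near Zfp184 and around Tcf3 and Onecut3. Of several runs of 4, the 1 named lay within 67.3 kb at Agap1, a GTPase-activating protein. At Cdh4 and Kcnn3 no other union interval stood in the run.

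By nearest gene, Sfxn5 had 8 CTX-alone intervals of 11 union intervals, Emx1 6 of 7, Cdh23, an atypical cadherin, 6 of 8, Kcnn3 5 of 7, Kalrn, a guanine exchange factor, 5 of 8, Sipa1l3 5 of 9, Lingo1, a neuronal surface protein, 5 of 10, Camta1, a transcription activator, 5 of 11 and Afap1 4 of 7. Most genes had few: 2645 of 3055 nearest genes had 1 interval. With protein-coding genes only, Cdh4 led with 9 of 20, and as many of its 20 were in MGE alone, followed by Nfib with 8 of 15, a nuclear factor I gene of cortical differentiation, and Sfxn5 with 8 of 11. A nearest gene is a matter of position and no sign that the interval acts on it.

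The nearest genes were then read by 6 lists, with 125 genes in all, against the background of 12.0%. That background mixes places, as CTX alone held 4.23% of union intervals within 2 kb of a TSS and 22.1% of those farther away. The list shares were not matched for this distance, so its part in them was not tested. The lists were also chosen with earlier results of these data known, so their shares are a description. Intervals of 1 gene are counted separately, although they may stand close together. Of the 25 in CTX alone named next, 6 were at Emx1 and 4 at Dmrt3. For the 16 genes of dorsal progenitors, 25 of the 64 nearest union intervals were in CTX alone (39.1%, 28.1 to 51.3) and 5 in MGE alone (7.81%, 3.38 to 17.0), against 12.0% and 22.0% over all genes. Of the 16 genes, 9 had at least 1 such interval, among them Emx1, Dmrt3 with 4 of 9, Dmrta1 with 3 of 5, Dmrta2 with 2 of 4, Neurog2, the proneural factor, with 2 of 4, Pax6 with 2 of 7 and Gli3, a Hedgehog pathway repressor, with 2 of 4. With the nearest protein-coding gene the share was 36 of 99 (36.4%, 27.6 to 46.2). At Neurog2 the intervals were 692 bp and 501 bp, 7033 bp upstream and 13064 bp downstream, with a −log10 q of 4.41 and 7.54. At Dmrta2 an interval of 721 bp lay 5912 bp downstream of the TSS with 10.4. In the neighbourhood of Pax6 an interval of 870 bp lay in an intron of Elp4, 26904 bp downstream of a Pax6 TSS, with 7.74.

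The 18 genes of Cajal-Retzius cells and the hem came next, with 12 of 49 nearest union intervals in CTX alone (24.5%, 14.6 to 38.1) and 6 in MGE alone (12.2%). The CTX share was near the 22.1% of all union intervals over 2 kb from a TSS. By nearest protein-coding gene, 21 of 73 were in CTX alone (28.8%, 19.7 to 40.0) and 15 in MGE alone (20.5%). By nearest gene of any type, LGE alone and CGE alone held 4 intervals each (8.16%, 3.22 to 19.2). Over all genes their shares were 1.09% and 1.84%. Wnt8b had 4 of 7, Wnt3a 2 of 4, Rspo1, a secreted enhancer of Wnt signalling, 2 of 3 and Bmp4, a bone morphogenetic protein, 2 of 4. At Wnt3a intervals of 556 and 191 bp flanked a TSS with a −log10 q of 2.66 and 2.74, and no other list had a peak within 2 kb of a Wnt3a TSS. At Rspo1 intervals of 831 and 518 bp lay 7188 and 20540 bp upstream with 3.17 and 2.09. At Bmp4 an interval of 337 bp covered a TSS with a −log10 q of 1.40.

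The 20 genes of projection neurons had 19 of 84 in CTX alone (22.6%, 15.0 to 32.6) and 17 in MGE alone (20.2%). The CTX share was near the 22.1% of all union intervals over 2 kb from a TSS. Nfix, a nuclear factor I gene, had 4 of 13 and Cux2, an upper-layer homeobox gene, 3 of 9. Tle4, a corepressor, had 2 of 4, the wider with 716 bp and a −log10 q of 4.48. Tbr1, a T-box factor of early-born neurons, had 1 of 4, of 554 bp and 166 bp downstream of the TSS, with 1.64. Near Fezf2, a zinc-finger factor of deep-layer neurons, an interval of 724 bp lay 7225 bp downstream with 6.70.

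The other 3 lists had lower shares by nearest gene of any type. Subpallial genes had 10 of 61 in CTX alone (16.4%, 9.16 to 27.6), 3 of them at Sp8, a zinc-finger factor used in the cortex and the dorsal LGE. With the nearest protein-coding gene their share was 12.6% in CTX alone and 25.2% in MGE alone. Genes of axon guidance and adhesion had 9 of 75 in CTX alone (12.0%) and 19 in MGE alone (25.3%), and by nearest protein-coding gene 25 of 139 in CTX alone (18.0%, above the 12.0% over all genes) and 53 in MGE alone (38.1%). The non-neural genes had 0 of 24 in CTX alone, where a count of 0 allows up to 3, and 7 in MGE alone (29.2%). By nearest protein-coding gene they had 2 of 34 in CTX alone (5.88%, 1.63 to 19.1).

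**Figure D4:**
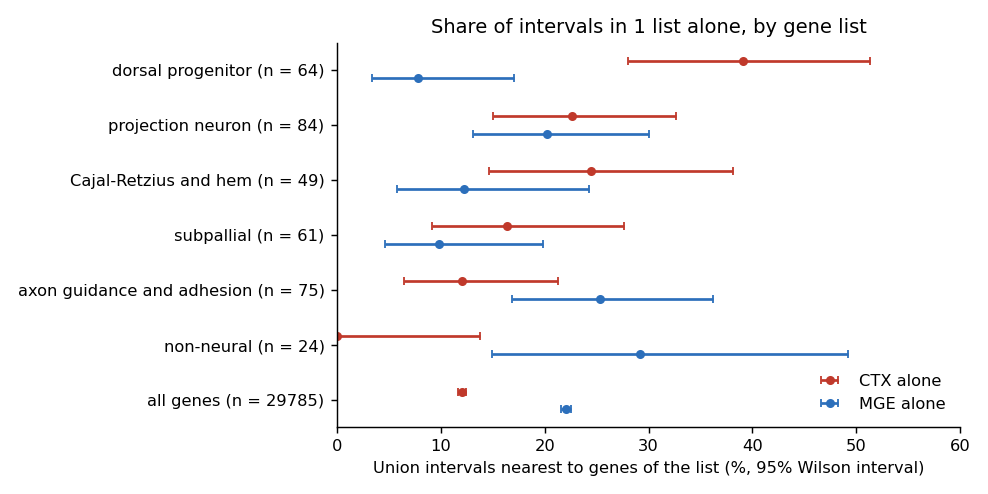
Share of the union intervals nearest to the genes of each list (x axis, %) that were in CTX alone (red) or MGE alone (blue), with 95% Wilson intervals and the number of union intervals beside each list. Dorsal progenitor genes stand at 39.1% for CTX alone, against 12.0% over all genes. The lists were chosen with earlier results of these data known.

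Most protein-coding genes with a CTX-alone interval near a TSS also had peaks of the other lists near a TSS. Such peaks may lie at another TSS of the same gene. At Etv6, for example, the nearest peak of another list lay 40744 bp from the CTX-alone interval. Within 2 kb of a TSS, 475 protein-coding genes had such an interval. Peaks of all 3 other lists lay within 2 kb of a TSS of 302 of these genes, and 130 genes had no peak of the other lists there. Intervals of 500 bp or more near a protein-coding TSS belonged to 45 genes. Near any TSS of the gene, 24 of them had peaks of all 3 other lists and 17 had none.

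The widest of these, after Cldn9 and Sbno2, were at Mybphl, a myosin-binding protein of muscle (855 bp), Frem1, an extracellular matrix protein (844 bp), Wnt8b, Elk3, an ETS-domain factor (823 bp), and Ctf1, the cytokine cardiotrophin (819 bp). Lmo3, a LIM-only cofactor, had intervals of 686 and 680 bp with a −log10 q of 8.17 and 4.61. Syne4, a nuclear envelope protein (694 bp), Clybl, a mitochondrial lyase (664 bp), and Pde8b, a phosphodiesterase (666 bp), had a −log10 q of 4.33, 5.31 and 4.21. Others lay below the median of all CTX-alone intervals, with a −log10 q of 1.73 at Gm5105 (691 bp), 1.79 at Megf6 (690 bp), 1.65 at Duoxa1 (648 bp), 1.65 at Acat3 (637 bp), 1.81 at Crip3 (698 bp), 1.87 at Stab1 (625 bp), 1.91 at Frmd4b (749 bp) and 1.88 at Crhr2 (636 bp). Emid1, Map2k6, Pdlim7 and Fam184b completed the 25 widest with 709, 686, 658 and 625 bp. The genes without a peak of another list near a TSS included Cldn9, Sbno2, Mybphl, Ctf1, Syne4, Crip3, Stab1 and Wnt3a.

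Of the 19 Wnt genes, 4 had an interval of 500 bp or more at a promoter, beside 45 of all 21951 protein-coding genes, a group chosen after its values were seen. These were Wnt8b (840 bp), Wnt9a (699 bp, −log10 q 1.92), Wnt5a (599 bp, 1.28) and Wnt3a (556 bp, 2.66). At Wnt5a the CTX peaks near a TSS covered 2611 bp, the MGE peaks 2549 bp, the LGE peaks 3552 bp and the CGE peaks 4332 bp, so that its CTX-alone interval lay beside peaks of all lists. At Wnt9a they covered 828, 318, 302 and 1311 bp in CTX, MGE, LGE and CGE. The CTX sums at Wnt5a and Wnt9a include their CTX-alone intervals of 599 and 699 bp.

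The letters TAATTA were more frequent in the distal CTX-alone intervals than in the 4 other classes of distal interval compared. These shares were not matched for GC content. Among windows of 300 bases over 2 kb from a TSS, they were in 466 of 2858 in CTX alone (16.3%, 15.0 to 17.7), 344 of 3374 shared CTX peaks (10.2%, 9.22 to 11.3), 310 of 5501 in MGE alone (5.64%, 5.06 to 6.28), 19 of 206 in LGE alone (9.22%, 5.98 to 14.0) and 19 of 287 in CGE alone (6.62%, 4.28 to 10.1). Over all distal union intervals the share was 9.53%, and over 32851 RefSeq promoters of 300 bases it was 5.29%. TAATTA reads the same on both strands. It overlaps none of the E-box letters.

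The share was larger in CTX-alone intervals of higher −log10 q. It was 10.8% (9.21 to 12.7) at a −log10 q under 2, 20.2% (18.3 to 22.2) at 2 or more and 26.5% (23.3 to 30.0) at 3 or more, the last class lying within the one before. In MGE alone the corresponding shares were 5.24%, 6.84% and 7.39%. At a GC content of 45% to under 55%, 16.1% (14.4 to 18.0) of the CTX-alone windows and 5.44% (4.72 to 6.27) of the MGE-alone windows held the letters. Below 45% these were 33.8% and 10.9%, and at 55% or more 5.70% and 2.46%. The median GC content of the distal windows was 51% in CTX alone, 50.7% in MGE alone and 55.7% in the shared CTX peaks. In LGE alone it was 52.7% and in CGE alone 53%. Shares at equal GC content are given here for MGE alone only. For the other classes the part of base composition in the difference was not tested. The other 7 palindromes made of 6 A and T letters were in 2.76% to 9.10% of the CTX-alone windows, the highest being ATTAAT and, at 8.15%, TTTAAA. Of the E-box letters, CAGATG was in 22.7% (21.2 to 24.3) of the distal windows in CTX alone. It was in 22.9% in MGE alone and 19.5% of the shared CTX peaks, and in 17.2% of promoters. CAGCTG was in 20.3%, 24.0% and 23.7%, and in 16.3% of promoters. CATATG was in 5.32%, 6.54% and 2.70%, and in 3.91% of promoters. Both strands were searched.

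**Figure D5:**
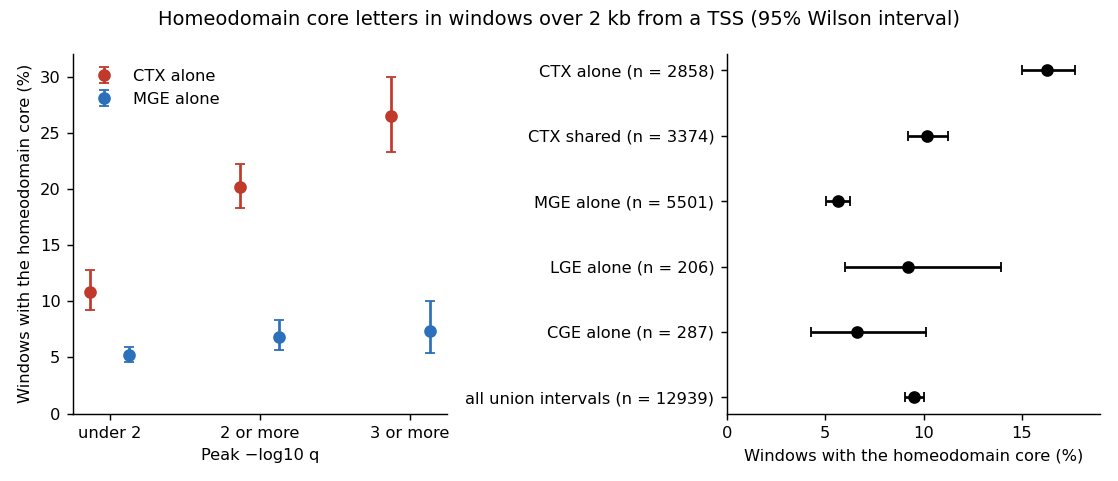
Share of 300-base windows over 2 kb from a TSS that held the homeodomain core letters (%, 95% Wilson intervals), by −log10 q of the peak for CTX alone and MGE alone (left; the last class is part of the one before it) and by class of interval (right). CTX alone goes from 10.8% to 26.5%, and MGE alone from 5.24% to 7.39%.

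Over all 3571 CTX-alone windows, promoters included, the letters were in 15.1%. They were in 2 of the 17 windows of the Emx1 run (11.8%, 3.29 to 34.3), in 5 of the 25 CTX-alone windows nearest to dorsal progenitor genes (20.0%, 8.86 to 39.1), and in 3 of the 6 nearest to Emx2 by protein-coding gene (95% interval 18.8 to 81.2%). Of the 9 nearest to genes of axon guidance and adhesion, 4 held them (44.4%, 18.9 to 73.3), and of the 19 nearest to projection neuron genes 1 did (5.26%, 0.935 to 24.6).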

How the data were processed

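H3K4me3 was profiled by CUT&Tag in MGE, LGE, CGE and CTX, with 12 samples in all. There were 2 replicates per region, some with more than 1 sample, and the labels do not say how such samples differ. The authors aligned reads with Bowtie2 to GRCm38/mm10, removed duplicates with Picard, merged replicates and called broad peaks with MACS, whose version and threshold are not given in the sources used here. The deposited lists give for each peak a fold, which is the ratio of reads to the caller's background, a −log10 p, a −log10 q and a score that is 10 times the latter. Fold and −log10 q depend on depth, so between lists they are set side by side as listed values and not as amounts of the mark. The score and the −log10 p were not used. Some peak numbers are missing from every list, between 31 and 64.

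Peaks were merged where they overlapped or touched, in Python 3.11.15 with numpy 2.4.6 and pandas 2.3.3. Positions are 1-based. TSSs, genes and exons came from GENCODE M21 (55450 genes, 21951 protein-coding), the place of an interval was that of its midpoint with exon before intron, and ties for the nearest TSS went to protein-coding genes. Sequence was read from the soft-masked RefSeq GRCm38 assembly, whose chromosome lengths hold every peak. Named genes were those of the 10 highest −log10 q, 10 highest folds, 10 widest intervals, the 25 widest at protein-coding promoters, the 10 genes nearest to most intervals, the gene lists and the runs. A gene that this rule names is not reported here. The members and lists were chosen with earlier results of these data known. Merging, nearest TSS and place matched known answers in 100 of 100 simulated runs each. Alternatives were a minimum −log10 q (2 in each list), equal list lengths of 17284 peaks, autosomes only, joining within 1 kb, minimum widths of 243 and 500 bp, a 50% cover limit, each other list not used, other TSS windows, and protein-coding genes only.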

Additional observations from a re-analysis of the deposited data

How the results depend on the processing

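Of 54 recalculations of the 5 main values, 36 stayed within 1.5 times of the count or within the 95% interval, and 18 moved. The number of intervals in CTX alone was 2001 when lists were limited by fold to 17284 peaks each, 1489 with a common minimum width of 243 bp and 530 with peaks of 500 bp or more in every list. The median width became 218 bp at a −log10 q of at least 2, 221 bp with lists limited by fold, 368 and 608 bp with the minimum widths of 243 and 500 bp, 203 bp with CTX peaks covered under 50% and 204 bp without the MGE list. The share within 2 kb of a TSS became 17.4% with lists limited by fold, 18.2% with peaks under 1 kb apart joined, 22.8% with 500 bp in every list and 21.4% without the CGE list. With a window of 1 kb it was 13.5%, with 5 kb 35.3%, with protein-coding genes only 14.0% and with gene 5′ ends only 11.6%. The intergenic share became 46.0% with protein-coding genes only.

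Alternatives chosen after seeing the data gave dorsal progenitor genes a share of 21.7% (10 of 46 intervals) in CTX alone, against 8.88% over all genes, with lists limited by fold, and 15.2% (5 of 33) against 3.02% with 500 bp in every list. TAATTA was in 17.8% of distal windows under 50% repeat-masked (MGE alone 6.70%) and in 20.0% of those of 500 bp or more (MGE alone 10.9%, 7.73 to 15.3).

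No paired analysis was possible because each list pools its replicates, and no replicate was left out for that reason. What a missing peak shows is limited by depth, which by the study's text differs between regions and which the lists do not give. It is also limited by the caller's settings, which are not given in the sources used here for each list. Under 243 bp LGE listed 0 peaks and CGE 3, and the cause was not tested.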

Other observations

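On the X chromosome 37 of 690 union intervals were in CTX alone (5.36%), while the autosomes ranged from 11.0% to 12.9%.

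Close to the type I interferon cluster of chromosome 4, CTX alone marked 189 bp over the start of Gm13277 with a −log10 q of 13.3 and 515 bp at 1198 bp downstream of Ifna1, an interferon gene, with 4.15. No other list had a peak within 2 kb of a TSS of either gene. These intervals were singled out after their values were seen, and how reads from near-identical gene copies were treated is not given in the sources used here.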
